A study of Homo sapiens with 12 samples.

Results

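Autophagy in human cells is run by a small set of dedicated proteins, and the 37 genes described here encode that machinery together with the receptors that bring cargo to it. They were taken by gene symbol from the 32269 identifiers of the count table, and all 37 were found. In the fit over both lines all 37 passed the filter on low counts, but ULK2 passed only through MKN1, and 36 passed in each line alone. RNA was sequenced from AGS, an epithelial cell line from a gastric adenocarcinoma, and MKN1, a line from a gastric adenosquamous carcinoma. Both are labelled WT for genotype and were grown in RPMI-1640 medium with serum. Each line was left untreated or was given cantharidin sodium, which makes 4 groups of 3 libraries that the series' text calls biological replicates. Cantharidin is a blister beetle toxin known as an inhibitor of serine/threonine phosphatases. The sources used here give neither dose nor duration, and each cancer type is represented by 1 line.

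As background, autophagy encloses cytoplasm in a double membrane, the autophagosome, and delivers it to lysosomes. A kinase complex built on ULK1 or ULK2 starts the process. A lipid kinase complex with PIK3C3 and BECN1 then makes the lipid PI3P, WIPI proteins bind that lipid, and ATG9A and ATG2 proteins bring lipid to the growing membrane. Conjugation enzymes attach ATG8 family proteins such as MAP1LC3B to it, and receptors such as SQSTM1 bind ubiquitinated cargo on one side and ATG8 proteins on the other. Much of this regulation acts on proteins, so RNA levels are a measure of gene expression and not of autophagic flux, which was not measured.

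Library totals lay between 28604966 and 51604215 counts, of which the 37 genes held 0.334% to 0.497%. Levels below are in CPM, counts scaled to a common library size after adjustment by the trimmed mean of M values, each group's values are given in the order of replicates 1, 2 and 3, and 3 counts corresponded to 0.0581 to 0.105 CPM. MKN1 untreated replicate 3 stood apart from its group, with a first principal component of 7.66 against -39.3 and -40.3 for the others and 10.9 to 35.8 for treated MKN1 libraries. Epithelial marker sums were 4111 to 5538 CPM in AGS and 4895 to 6630 CPM in MKN1, and squamous marker sums were 1589 to 3150 CPM in MKN1. Of the 6 epithelial markers, KRT8 and KRT18 were higher and 3 lower in untreated MKN1 (edgeR, adjusted p below 0.05). The lower ones were EPCAM (mean 429 CPM in AGS, 21.8 in MKN1), CLDN4 (225 and 12.6) and CDH1 (20.8 and 9.30). Mesenchymal marker sums were 28.4 to 40.0 CPM in AGS and 1422 to 2455 CPM in MKN1. Of those 6 markers, 4 were higher and 1 lower in untreated MKN1. In AGS the squamous sum was 160 to 198 CPM untreated and 90.3 to 107 CPM treated, with 5 of its 6 markers under 1 CPM, and its part in the AGS results was not tested.

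Per kilobase of the longest transcript, the receptor SQSTM1 was the most abundant of the 37 genes in both untreated lines, at 376 ± 28.6 CPM per kb in AGS and 333 ± 27.5 in MKN1 (mean ± SD, n = 3). The next levels in AGS were 96.3 ± 2.70 CPM per kb for MAP1LC3B and 95.1 ± 13.0 for GABARAP, both ATG8 proteins, and these neighbours did not differ beyond their spread. In MKN1 the second level was that of the receptor TAX1BP1, 95.7 ± 7.19 CPM per kb. GABARAP, GABARAPL1 and BECN1 followed at 72.0 ± 6.58, 69.9 ± 19.3 and 67.9 ± 1.34, and these 3 lay within 1 SD of GABARAPL1. ULK2 was the lowest in both untreated lines, at 0.0367 ± 0.0118 CPM per kb in AGS and 1.80 ± 0.0453 in MKN1. ATG10, the enzyme that attaches ATG12 to ATG5, was near the lower end in both, at 2.04 ± 0.273 and 2.24 ± 0.506 CPM per kb.

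**Figure D1:**
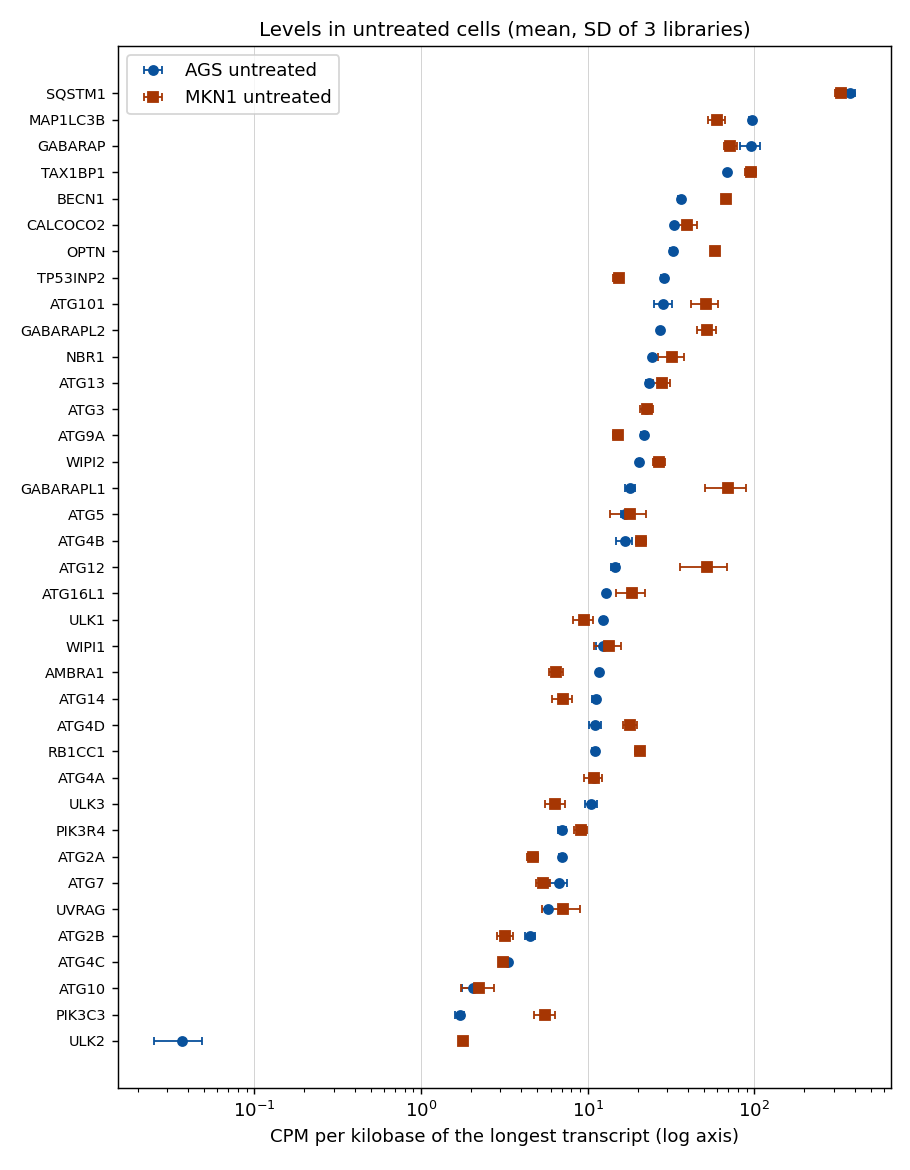
Untreated levels of the 37 autophagy genes in CPM per kilobase of the longest transcript, on a logarithmic axis, for AGS and MKN1, as means with the SD of 3 libraries. SQSTM1 is the highest and ULK2 the lowest gene in both lines, and ULK2, PIK3C3, ATG12 and GABARAPL1 show the widest gaps between lines.

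The untreated lines differed in 25 of the 37 genes, 16 higher and 9 lower in MKN1, by edgeR's quasi-likelihood test at an adjusted p below 0.05 over all 20280 tested genes. That is 67.6% of the set against 66.3% of all tested genes (34.9% higher and 31.4% lower), so the count alone sets the machinery no further apart than other genes. Without ULK2, which had to differ because it passed the filter only through MKN1, 24 of 36 were called, 15 higher and 9 lower. ULK2 was near the floor in AGS, at 0.236, 0.143 and 0.282 CPM, and was measured at 10.9, 10.5 and 11.0 CPM in MKN1, which is given as a description. Of the 4 ATG8 genes, GABARAPL1 had 38.3, 43.6 and 42.6 CPM in AGS against 137, 133 and 211 in MKN1, a log2 difference of 1.95 ± 0.21 (SE), and GABARAPL2 was higher in MKN1 by 0.95. MAP1LC3B and GABARAP went the other way, with log2 differences of -0.69 and -0.40. ATG12, the ubiquitin-like protein that is joined to ATG5, had 59.8, 67.0 and 63.1 CPM in AGS and 283, 249.7 and 146 CPM in MKN1 (1.84 ± 0.21). The lipid kinase PIK3C3 had 15.6, 17.3 and 15.6 CPM in AGS and 59.5, 53.9 and 44.3 CPM in MKN1 (1.70 ± 0.18). Its partners were split: BECN1 was higher in MKN1 by 0.90 and PIK3R4, a regulatory subunit, by 0.37, whereas ATG14, which directs the complex to autophagy, and AMBRA1 were lower, with log2 differences of -0.65 and -0.84. The calls of GABARAP and PIK3R4 were lost without AGS untreated replicate 3 (adjusted p = 0.0548 and 0.0749, edgeR), and that of PIK3R4 also without AGS untreated replicate 1 (0.0551) or MKN1 untreated replicate 3 (0.0519). For the genes with values printed here, no MKN1 library overlapped the AGS libraries.

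Cantharidin sodium was accompanied by changes in 13 of the 37 genes in AGS, 6 higher and 7 lower, which is 35.1% of the set against 20.8% of all tested genes (9.21% higher and 11.6% lower). Among the 36 genes that passed the filter in AGS alone, 12 were called, 6 higher and 6 lower. The set moved in no single direction: its median log2 change was 0.05, against -0.01 over all genes. The genes that rose were RB1CC1, BECN1, WIPI1, ATG2B, MAP1LC3B and TAX1BP1, and those that fell were ULK2, ATG13, AMBRA1, ATG9A, ATG4D, SQSTM1 and TP53INP2. Treated and untreated AGS libraries did not overlap in 28 of the 37 genes, a state found in 52.4% of all tested genes. After ULK2, the lowest mean level in untreated AGS was 6.2 CPM (ATG10), whereas all tested genes include many of low level, where changes are harder to call. Shares among genes of like level are not given here. In these bulk samples, fewer cells of a type and less RNA per cell cannot be told apart.

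**Figure D2:**
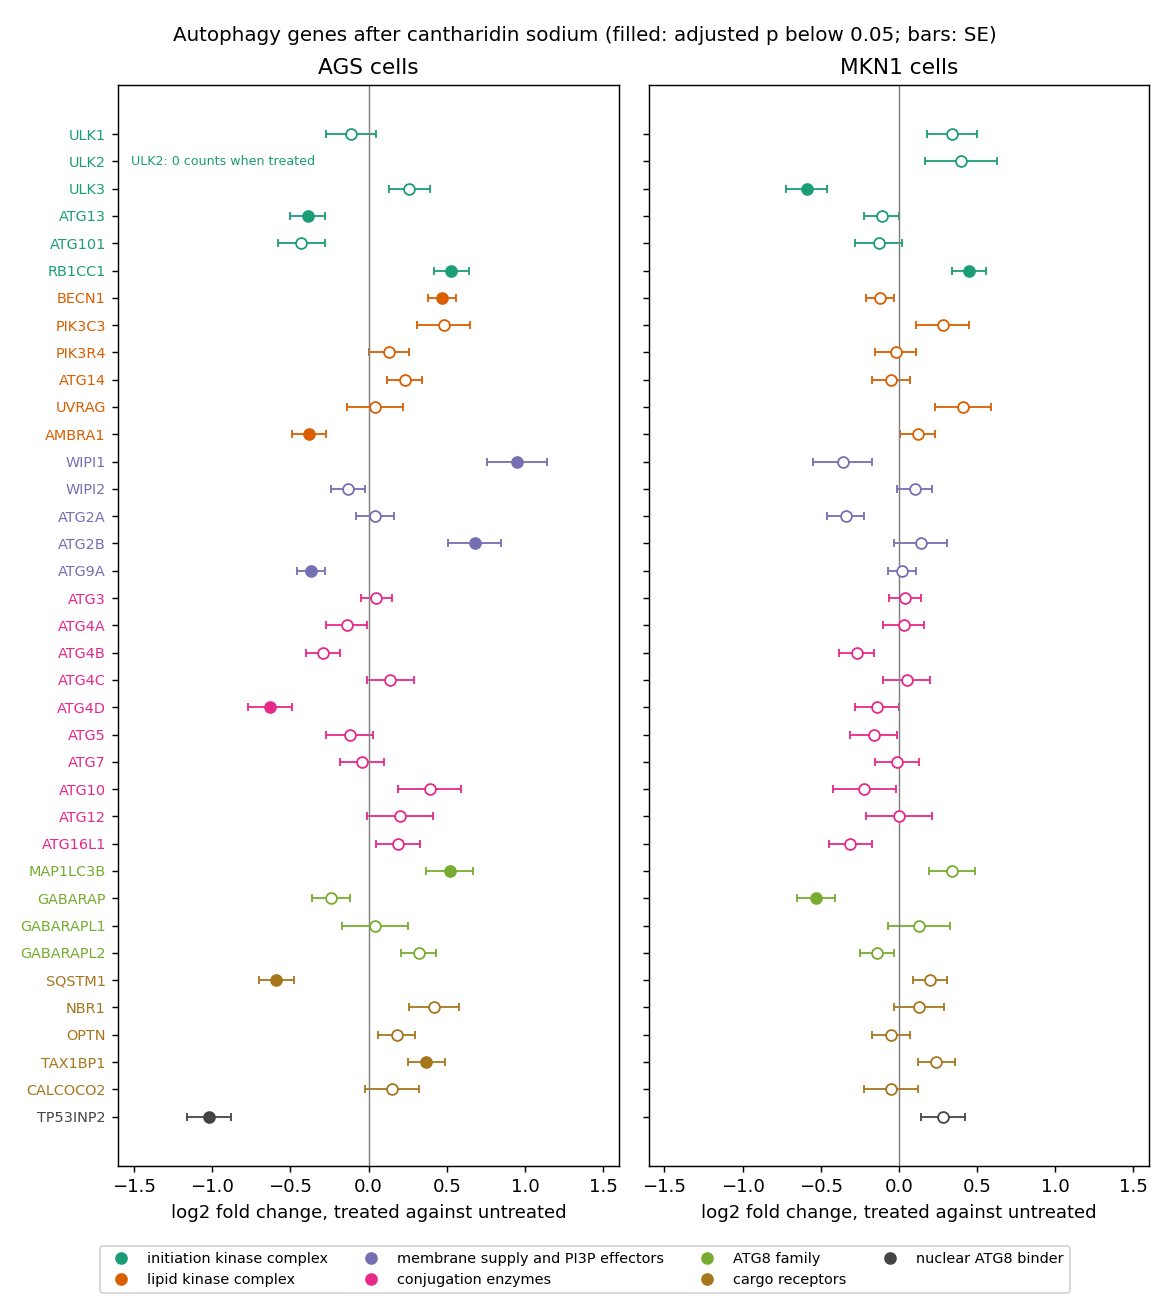
Log2 fold change of treated against untreated cells for the 37 genes by step, in AGS and MKN1. Points are edgeR estimates with SE as bars, filled where the adjusted p is below 0.05, and ULK2 in AGS is written as text because all treated libraries had 0 counts. AGS has 13 filled or written genes in both directions, and MKN1 has 3.

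In the initiation complex, 1 of 6 genes rose in AGS and 2 fell. RB1CC1, the scaffold on which the ULK kinases assemble, was measured at 77.3, 72.8 and 71.0 CPM in untreated and 99.5, 115 and 105 CPM in treated AGS. Its log2 fold change was 0.53 ± 0.11 (SE, adjusted p = 0.00613, edgeR's quasi-likelihood test), and all treated libraries lay above all untreated ones. ATG13, the subunit that links the kinase to RB1CC1, had 104, 97.6 and 102 CPM before and 76.3, 77.5 and 77.8 CPM after treatment (-0.39 ± 0.11, adjusted p = 0.0301, edgeR), a call that was lost without any 1 AGS library or without MKN1 untreated replicate 2 (0.0514 to 0.0921). The kinase gene ULK2 had 12, 5 and 11 counts in the 3 untreated libraries and 0 in each treated one. Against a floor of 3 counts over the group it was at least 8.03-fold lower. It was past the threshold in the fit over both lines, which it entered through its MKN1 counts, and it was not tested with AGS fitted alone because it did not pass the filter there. The blood and endothelial markers, of which 5 were measured, also had low levels that moved in AGS: their sum was 7.78 to 20.2 CPM untreated and 0.122 to 0.310 CPM treated. HBB and VWF were lower among them, PTPRC was at 0 in all treated AGS libraries, and PECAM1 was at 0 in all untreated ones. The part of these markers in the ULK2 result was not tested. ULK1, the main kinase, had 63.9, 65.5 and 68.2 CPM untreated and 57.0, 69.4 and 56.5 CPM treated, groups that overlap. ATG101, which stabilises ATG13, had a log2 value of -0.43 (adjusted p = 0.0652, edgeR) and ULK3, a related kinase, 0.26 (adjusted p = 0.173, edgeR).

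Among the 6 lipid kinase genes, BECN1 rose and AMBRA1 fell in AGS. BECN1, the regulatory core of the complex, had 78.9, 77.6 and 73.6 CPM in untreated and 108, 102 and 109 CPM in treated AGS. The change was 0.47 ± 0.09 on the log2 scale (adjusted p = 0.00369, edgeR's quasi-likelihood test), and the groups were far apart compared with their spread. AMBRA1, a BECN1-binding scaffold, had 61.0, 64.2 and 61.8 CPM untreated and 49.7, 48.7 and 45.8 CPM treated (-0.38 ± 0.11, adjusted p = 0.0328, edgeR), a call that was lost without any 1 AGS library or without MKN1 untreated replicate 2. The catalytic subunit PIK3C3 had 15.6, 17.3 and 15.6 against 22.3, 23.9 and 21.3 CPM, without overlap, but its log2 value of 0.48 ± 0.17 did not pass (adjusted p = 0.069, edgeR). ATG14, PIK3R4 and UVRAG, the last a subunit of the endosomal form of the complex, had log2 values of 0.23, 0.13 and 0.04 and did not pass.

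The genes for membrane supply and PI3P effectors, 5 in number, held the largest rise of the set in AGS. WIPI1, which binds PI3P on forming autophagosomes, had 20.6, 24.5 and 22.7 CPM in untreated and 37.1, 55.2 and 38.9 CPM in treated AGS. This was a 1.94-fold increase (log2 0.95 ± 0.19, adjusted p = 0.00457, edgeR's quasi-likelihood test), and the lowest treated library lay above the highest untreated one. ATG2B, a lipid transfer protein, rose from 66.2, 62.2 and 57.3 CPM to 92.4, 105 and 101 CPM (0.68 ± 0.17, adjusted p = 0.0147, edgeR). ATG9A, the scramblase on autophagic vesicles, fell from 83.3, 88.7 and 90.4 CPM to 65.6, 72.1 and 64.7 CPM (-0.37 ± 0.09, adjusted p = 0.0156, edgeR). The paralogs of the genes that rose had smaller values: WIPI2 had -0.13 and ATG2A 0.04, neither past the threshold, and the difference between paralogs was not tested. Without AGS untreated replicate 3 or treated replicate 2 the adjusted p of ATG2B was 0.0682 or 0.0576, and that of ATG9A was 0.0514 to 0.0712 without untreated replicate 2 or 3 or treated replicate 1 or 3.

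Of the 10 conjugation enzymes, only ATG4D, a protease that processes ATG8 proteins, passed the test in AGS. It had 20.2, 21.3 and 23.7 CPM untreated and 13.1, 14.9 and 14.0 CPM treated, with no overlap (-0.63 ± 0.14, adjusted p = 0.0101, edgeR's quasi-likelihood test). Log2 values of the other enzymes lay between -0.29 for the main protease ATG4B (adjusted p = 0.0773, edgeR) and 0.39 for ATG10 (adjusted p = 0.185, edgeR). The median of the 10 genes was 0.00. ATG7, the E1-like enzyme that activates both ubiquitin-like proteins, had 32.6, 29.7 and 37.7 CPM untreated and 33.2, 30.7 and 33.3 CPM treated. ATG3, the E2-like enzyme for ATG8 proteins, had 69.4, 64.5 and 67.9 against 70.0, 69.7 and 68.9 CPM, and ATG5 had 51.3, 53.9 and 57.2 against 46.9, 51.4 and 51.4 CPM. Treated and untreated levels of these 3 enzymes overlapped.

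In the ATG8 family, MAP1LC3B rose in AGS and the other 3 genes did not pass. MAP1LC3B, the source of the LC3 protein used to follow autophagosomes, had 259.6, 251 and 266 CPM untreated and 377, 399.6 and 334 CPM treated. The change was 1.43-fold (log2 0.52 ± 0.15, adjusted p = 0.0315, edgeR's quasi-likelihood test). GABARAPL2 had 27.4, 27.2 and 27.0 against 33.4, 34.7 and 34.1 CPM, a tight separation with a log2 value of 0.32 and an adjusted p of 0.0524 (edgeR). GABARAP and GABARAPL1 had log2 values of -0.24 and 0.04. The call of MAP1LC3B held without treated replicate 3 and was lost without any other AGS library, with an adjusted p of up to 0.112 (edgeR, without treated replicate 2).

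The cargo receptors included the most abundant gene that fell. SQSTM1 had 1090.3, 1058 and 1219.8 CPM in untreated and 716, 793 and 732 CPM in treated AGS, so that every treated library lay below every untreated one. The treated level was 0.666 times the untreated level (log2 -0.59 ± 0.11, adjusted p = 0.00368, edgeR's quasi-likelihood test). TAX1BP1, a receptor that binds ubiquitinated cargo and cooperates with NBR1, rose from 231, 233 and 227 CPM to 289, 311 and 293 CPM (0.37 ± 0.12, adjusted p = 0.0436, edgeR). NBR1 had 115, 118 and 109 against 146, 163 and 148 CPM, without overlap, at a log2 value of 0.42 and an adjusted p of 0.0781 (edgeR). OPTN and CALCOCO2, receptors known from the removal of bacteria and mitochondria, had log2 values of 0.18 and 0.15.

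TP53INP2, a nuclear protein that binds ATG8 proteins and takes part in their move to autophagosomes, had the lowest adjusted p of the set in AGS. It had 115, 122 and 122 CPM untreated and 57.5, 68.1 and 51.2 CPM treated. The treated level was 0.492 times the untreated one (log2 -1.02 ± 0.14, adjusted p = 0.000705, edgeR's quasi-likelihood test). With any 1 AGS library left out, the adjusted p of ATG13, AMBRA1 and TAX1BP1 was above the threshold, at most 0.0921, 0.117 and 0.14 (edgeR), whereas BECN1, WIPI1, ATG4D, SQSTM1 and TP53INP2 passed under all 21 alternatives tried.

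In MKN1, 3 of the 37 genes passed, 1 higher and 2 lower, which is 8.11% of the set against 6.7% of all tested genes (2.8% higher and 3.9% lower). The median log2 change was 0.00, against 0.01 over all genes, and treated and untreated libraries were separate in 6 of the 37 genes, a state found in 21.4% of all genes. RB1CC1 rose, from 136, 128 and 145 CPM to 188, 207 and 163 CPM (0.45 ± 0.11, adjusted p = 0.0317, edgeR's quasi-likelihood test). It was the 1 gene of the set called in both lines, in the same direction, and the difference between its changes was -0.08 (adjusted p = 0.761, edgeR). ULK3 fell from 14.3, 17.3 and 18.9 CPM to 12.4, 10.4 and 10.8 CPM (-0.59 ± 0.13, adjusted p = 0.0242, edgeR). GABARAP, which has a tight fold and binds many receptors, fell from 109, 129.8 and 114 CPM to 90.3, 76.7 and 77.1 CPM (-0.53 ± 0.12, adjusted p = 0.0217, edgeR). In all 3 genes, every treated library lay outside the untreated range.

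The MKN1 calls rested on few libraries. With replicate number as a block within each line, RB1CC1 and ULK3 lost their calls. Without untreated replicate 2 or treated replicate 2 none of the 37 genes passed edgeR's test, although 5 and 6 had an unadjusted p below 0.05. RB1CC1 also missed the threshold without MKN1 untreated replicate 1 (adjusted p = 0.0759, edgeR), MKN1 treated replicate 1 (0.0606) or any AGS library but treated replicate 2 (0.0501 to 0.057), since all libraries share the estimate of spread. Without untreated replicate 3, the library that stood apart, 6 passed, with RB1CC1 at 0.49, ULK3 at -0.50 and GABARAP at -0.56. The 3 that were added were UVRAG at 0.63 (adjusted p = 0.0182, edgeR), ATG16L1, the scaffold of the conjugation complex, at -0.46 (adjusted p = 0.0114) and ATG5 (adjusted p = 0.0446). With all libraries, UVRAG had 26.7, 23.6 and 38.0 CPM untreated and 34.4, 49.2 and 33.8 CPM treated, where untreated replicate 3 lies inside the treated range. ATG16L1 had 72.9, 67.8 and 49.1 against 51.8, 45.8 and 55.9 CPM, with the same library again inside the treated range. The lipid kinase genes, the membrane supply genes, the 10 conjugation enzymes and the receptors had no call in MKN1 with all libraries.

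**Figure D3:**
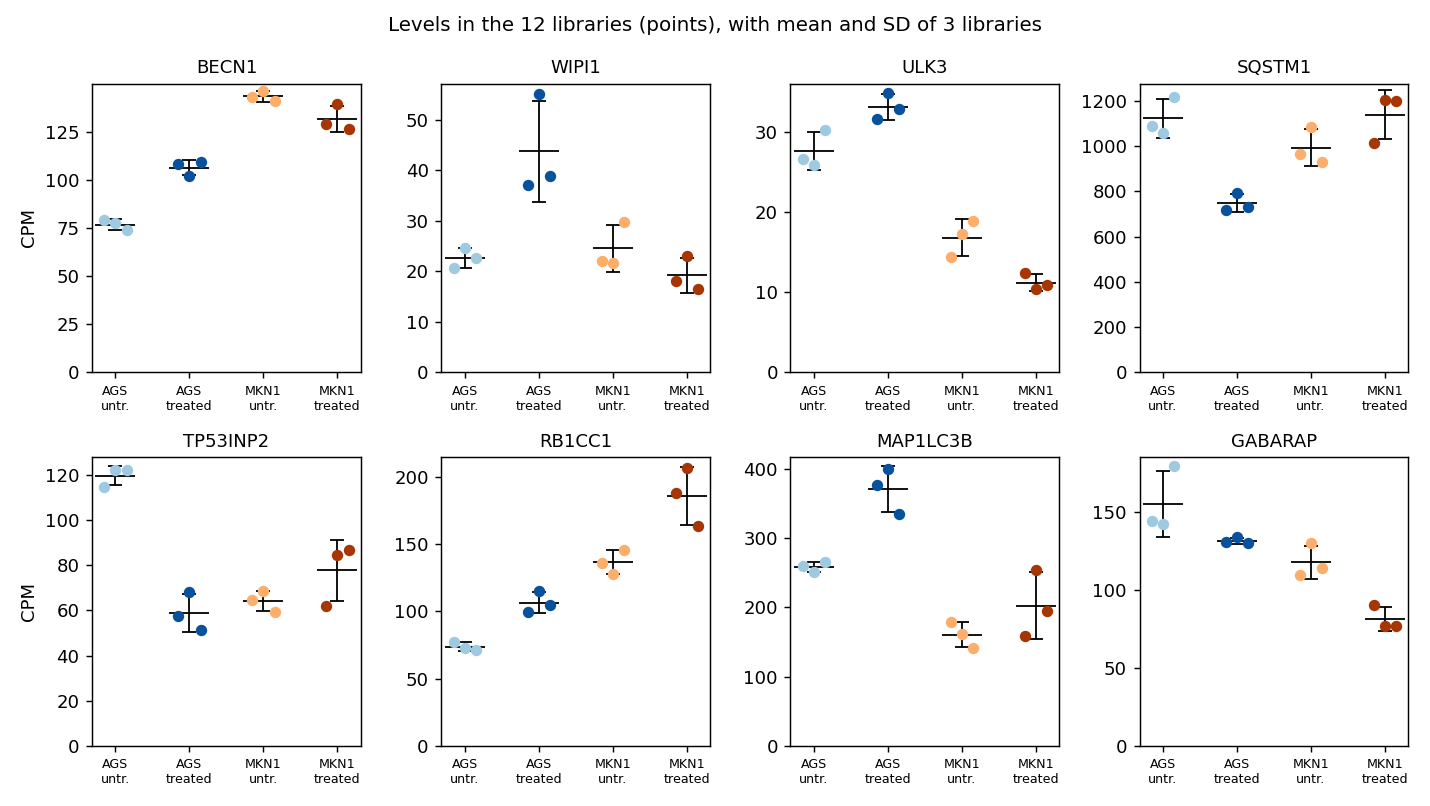
CPM of BECN1, WIPI1, ULK3, SQSTM1, TP53INP2, RB1CC1, MAP1LC3B and GABARAP in each of the 12 libraries, with the mean and SD of the 3 libraries of a group. Treated AGS libraries lie apart from untreated ones in every panel, whereas in MKN1 the groups overlap for WIPI1, SQSTM1, TP53INP2 and MAP1LC3B.

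The effect of treatment differed between lines for 6 of the 37 genes, 16.2% of the set against 15.7% of all tested genes, by a contrast of the MKN1 change minus the AGS change. The difference was above 0 for 3 of them and below 0 for 3 (8.38% and 7.3% of all tested genes). All 6 passed under the 20 alternatives tried, and 5 of them, without ULK2, were among the 36 genes that passed the filter in each line. ULK2, at chr17:19770829-19867936 on the minus strand of GRCh38, had 18.3, 13.9 and 10.4 CPM in treated against 10.9, 10.5 and 11.0 CPM in untreated MKN1, where the groups overlap. Its AGS arm rests on 28 counts against 0, so the fitted difference of 6.40 ± 0.90 depends on the prior count and is no measure of size. ULK3, at chr15:74836116-74843346 on the minus strand, fell in MKN1, while AGS had 26.6, 25.9 and 30.3 CPM untreated and 31.7, 34.8 and 32.9 CPM treated. The difference of -0.85 ± 0.19 had an adjusted p of 0.00924 (edgeR). The sign for ULK2 rests on 28 counts against 0 in AGS, so the directions of the 2 kinase genes are not compared.

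BECN1 lies at chr17:42810134-42833350 on the minus strand. Against its rise in AGS, MKN1 had 143, 146 and 141 CPM untreated and 129, 139 and 126 CPM treated (log2 -0.12, adjusted p = 0.431, edgeR). The difference was -0.59 ± 0.12 (adjusted p = 0.00719, edgeR). WIPI1, at chr17:68420948-68457513 on the minus strand, had 22.1, 21.6 and 29.8 CPM untreated and 18.0, 23.0 and 16.4 CPM treated in MKN1. These groups overlap, and the difference from AGS was -1.31 ± 0.26 (adjusted p = 0.00606, edgeR). Between the untreated lines WIPI1 had a log2 difference of 0.12 (adjusted p = 0.596, edgeR).

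SQSTM1, at chr5:179806398-179838078 on the plus strand, had 963, 1086 and 930.1 CPM in untreated and 1014, 1205 and 1202 CPM in treated MKN1 (log2 0.20, adjusted p = 0.299, edgeR). The difference from its fall in AGS was 0.79 ± 0.15 (adjusted p = 0.0053, edgeR), from untreated levels that did not differ past the threshold (-0.18, adjusted p = 0.169). TP53INP2, at chr20:34704290-34713439 on the plus strand, had 64.5, 68.5 and 59.4 CPM untreated and 62.1, 84.7 and 86.6 CPM treated in MKN1. The difference was 1.30 ± 0.20 (adjusted p = 0.0014, edgeR), and the treated AGS levels reached the range of untreated MKN1. In contrast, the calls of ATG13, ATG2B, ATG9A, ATG4D, MAP1LC3B and TAX1BP1 in AGS and of GABARAP in MKN1 came without a call on the difference, so their changes are not shown to differ between lines. AMBRA1 was near the threshold, with a difference of 0.50 and an adjusted p of 0.0519 (edgeR).

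Some of these genes overlap others. The kit named in the labels does not mark strand, so strand cannot separate reads of genes that overlap on opposite strands. The sources used here do not say how reads in overlaps were counted. Of the 50-base words of the longest transcript, 50.7% in SQSTM1 were shared with other genes, mainly MRNIP, 36.3% in BECN1, mainly CNTD1, 27.5% in WIPI1, mainly ARSG, and 44.8% in ATG9A. GABARAP had 72.6%, ATG4D 15.4% and MAP1LC3B 10.5%, the last mainly with its near copy MAP1LC3B2. ATG101 had 40.8%, ATG7 31.5% and ATG12 11.1%, mainly with AC025259.1, VGLL4 and AP3S1. Values of these genes are uncertain, but the shares do not measure by how much, and levels of the overlapping genes are not given here. ULK2, ULK3, RB1CC1, AMBRA1 and TP53INP2 shared none.

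The promoters of the genes whose change differed between lines are shown because their changes on treatment differed between lines. RefSeq windows on GRCh38.p14 were matched for 34 of the 37 genes, and 6 motifs were sought on both strands in the 250 bases before the RefSeq start site. Among the 6 genes, ULK2 and BECN1 held none of the motifs, and the stretches of the other 4 follow without bases that lie in exons of protein-coding transcripts. The exception is a motif match that crosses into such an exon, which is printed whole. The TP53INP2 stretch ends with its CREB element at 34704290, the first annotated base of the gene. Capitals mark motif matches: CACGTG, the E-box bound by TFEB, TGACNNNGC, an element of NRF2, TGACGTCA, bound by CREB, and the GC box GGGCGG or its complement CCGCCC.
ULK3, chr15:74843198-74843406, minus strand: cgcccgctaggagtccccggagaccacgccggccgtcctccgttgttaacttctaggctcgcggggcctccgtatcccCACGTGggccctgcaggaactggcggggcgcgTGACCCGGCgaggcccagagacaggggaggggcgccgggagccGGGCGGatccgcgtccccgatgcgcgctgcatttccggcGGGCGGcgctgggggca
WIPI1, chr17:68457497-68457746, minus strand: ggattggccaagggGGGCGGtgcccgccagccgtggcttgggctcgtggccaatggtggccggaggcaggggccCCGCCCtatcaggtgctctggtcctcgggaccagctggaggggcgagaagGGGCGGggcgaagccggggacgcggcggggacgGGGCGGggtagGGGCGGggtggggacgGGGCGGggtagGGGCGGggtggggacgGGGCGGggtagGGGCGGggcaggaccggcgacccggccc
SQSTM1, chr5:179806335-179806392, plus strand: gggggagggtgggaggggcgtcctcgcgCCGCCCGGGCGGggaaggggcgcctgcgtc
TP53INP2, chr20:34704094-34704290, plus strand: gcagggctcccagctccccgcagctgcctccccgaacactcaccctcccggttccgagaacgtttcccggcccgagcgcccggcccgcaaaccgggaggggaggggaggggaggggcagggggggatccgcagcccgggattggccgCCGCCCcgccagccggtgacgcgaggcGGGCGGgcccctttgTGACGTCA

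The 4 stretches share the GC box and no other motif. WIPI1 held 9 of them in its window, 8 on the strand of the gene. ULK3 held the E-box 172 bases and the NRF2 element 140 bases before its RefSeq start, and TP53INP2 held the CREB element 61 bases before its own. These RefSeq starts differ from the starts in the gene coordinates given above. By those coordinates both ULK3 elements lie inside the gene, and the CREB element ends on the first base of TP53INP2. Over the matched members, the GC box was found in 24 of 34 windows (70.6%, against 42.6% of 35116 windows), the E-box in 3 (8.82% against 6.34%), the NRF2 element in 4 (11.8% against 10.9%) and the CREB element in 2 (5.88% against 1.65%). The FOXO motif TGTTTAC was in 1 window (2.94% against 2.98%) and the ATF4 motif TGATGNAA in 0 (against 3.14%). Each member entered with 1 window, whereas the background held every window, with several for some genes and no limit to expressed genes. The paired shares are therefore not strictly alike, and their differences were not tested. None of the motifs overlapped in the printed stretches, and a match describes letters and not binding.

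Changes in AGS ran with base composition. Across 20085 genes, Spearman's rho between the log2 change and the GC content of the longest transcript was -0.27, and the median change went from 0.19 in the fifth of genes with the lowest GC to -0.28 in the fifth with the highest. Over 36 of the autophagy genes, leaving out ULK2, rho was -0.58. The 6 genes that rose had 37.1% to 48.7% GC, and those that fell had 46.4% to 64.8%, with ULK2 the lowest of them. In MKN1 rho was -0.12 over all genes and -0.23 over the members. These are correlations across genes of the same libraries and genes are not independent replicates.

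**Figure D4:**
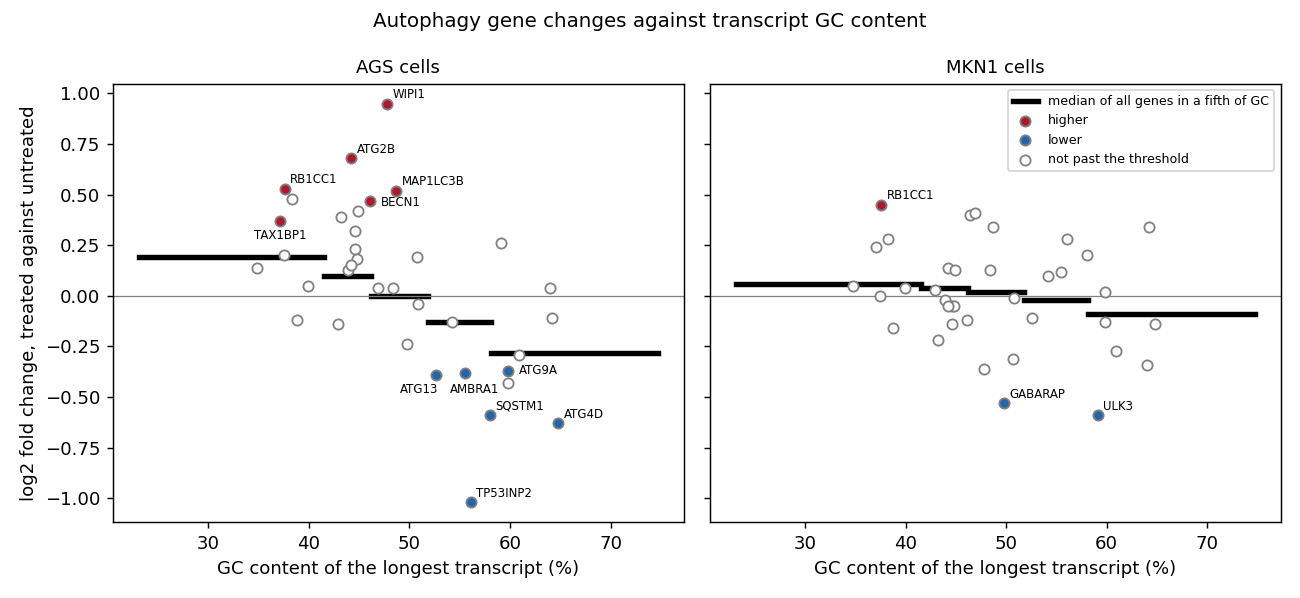
Log2 change on treatment against transcript GC content (percent) for the autophagy genes in AGS and MKN1, with bars for the median of all genes in 5 equal bins of GC content. ULK2 is left out of the AGS panel. In AGS the bars descend from 0.19 to -0.28 and the genes that fell lie towards high GC.

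With the trends of GC content and length removed, an alternative chosen after seeing the data, AGS again had 13 calls, 6 higher and 7 lower, of which 11 were shared with the fit above. RB1CC1 and TAX1BP1 lost their calls, at 0.28 (adjusted p = 0.081, edgeR) and 0.19 (adjusted p = 0.126). ULK3 at 0.46 (adjusted p = 0.0126) and GABARAPL2 at 0.32 (adjusted p = 0.0213) were added. In MKN1, 2 genes remained lower and RB1CC1 was lost. The difference between lines had 9 calls, with AMBRA1 at 0.40, ATG2A at -0.50 and GABARAPL2 at -0.37 added to the 6. The share of all tested genes called in this fit is not given here, so these counts are not read against a background.

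Genes that regulate or complete autophagy were read from further lists of 91 genes, of which 86 were tested. In AGS 21 of the 86 passed, 13 higher and 8 lower (24.4%, against 20.8% of all genes), and in MKN1 8 passed, 3 higher and 5 lower (9.3% against 6.7%). Among 26 genes of the mTORC1 and AMPK circuit, which restrains or activates the ULK kinases, 3 rose and 3 fell in AGS. The AMPK subunits PRKAB2 and PRKAA1 were among the risers, PRKAB2 from 86.0, 92.3 and 72.3 CPM to 194, 207 and 183 CPM and PRKAA1 from 51.4, 53.6 and 45.9 CPM to 99.0, 109 and 107 CPM. Their log2 changes were 1.22 ± 0.19 and 1.06 ± 0.17, and no libraries overlapped. AKT1S1, an inhibitory subunit of mTORC1, fell from 121, 114 and 131 CPM to 55.8, 52.2 and 57.2 CPM (-1.15 ± 0.16, adjusted p = 0.000733, edgeR's quasi-likelihood test). All 3 differed between lines, by -1.0, -1.22 and 1.59 (adjusted p = 0.023, 0.00517 and 0.000851, edgeR), and none passed in MKN1. The difference of PRKAB2 missed the threshold without any 1 of 4 libraries, AGS untreated 3 and treated 2 and MKN1 treated 1 and 3 (at most 0.0637).

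In MKN1 the stress genes SESN2 and DDIT3 rose. SESN2, which restrains mTORC1, had 10.6, 10.4 and 20.9 CPM untreated and 16.2, 74.8 and 65.3 CPM treated, so that treated replicate 1 lay below untreated replicate 3. Its change of 1.90 ± 0.42 (adjusted p = 0.022, edgeR) lost the threshold without either replicate 2, at 0.11 and 0.0802, without untreated replicate 1, at 0.0738, or without treated replicate 3, at 0.0535. DDIT3, a transcription factor of the stress response, had 16.0, 17.4 and 20.2 against 30.4, 129.6 and 65.6 CPM (2.07 ± 0.36, adjusted p = 0.00772, edgeR), with wide spread among treated libraries. Among 9 transcription factors, 3 rose in AGS and 2 in MKN1. FOXO1, a forkhead factor, had a change of 0.56 in AGS (adjusted p = 0.0447, edgeR), which was lost without any 1 AGS library (at most 0.138) or without MKN1 treated replicate 1 (0.0567) or 2 (0.0532). In MKN1 the related FOXO3 had a change of 0.40 (adjusted p = 0.0443, edgeR), a call lost without 10 of the 12 libraries in turn.

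Among 18 receptors for mitochondria and other organelles, 3 rose and 2 fell in AGS and 3 fell in MKN1. CCPG1, a receptor for the endoplasmic reticulum, rose in AGS from 129, 122 and 106 CPM to 245, 268 and 236 CPM (1.07 ± 0.16, adjusted p = 0.00131, edgeR). NIPSNAP1, a mitochondrial protein that marks damaged mitochondria for receptors, rose in AGS from 53.0, 50.4 and 51.3 CPM to 81.3, 81.9 and 76.1 CPM. In MKN1 it fell from 52.8, 59.6 and 57.5 CPM to 37.2, 35.4 and 25.5 CPM. The calls were thus opposite, at 0.63 and -0.79, and the difference was -1.42 ± 0.18 (adjusted p = 0.000499, edgeR's quasi-likelihood test). TOLLIP, a receptor for ubiquitinated aggregates, fell in AGS from 49.3, 49.8 and 57.1 CPM to 35.5, 35.0 and 37.1 CPM (-0.54 ± 0.11, adjusted p = 0.00595, edgeR). FKBP8, a receptor on mitochondria, and RTN3, one on tubules of the endoplasmic reticulum, fell in MKN1 by 0.63 and 0.43 on the log2 scale. Without MKN1 untreated or treated replicate 2, the adjusted p was 0.0943 or 0.0695 for FKBP8 and 0.113 or 0.0854 for RTN3 (edgeR), and RTN3 also missed the threshold without MKN1 untreated replicate 1, AGS untreated replicate 1 or AGS treated replicate 3.

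Of 17 other core genes, 2 rose and 1 fell in AGS and 1 fell in MKN1. ATG16L2, a paralog of ATG16L1, rose in AGS from 3.37, 3.31 and 3.49 CPM to 7.45, 7.51 and 8.03 CPM (1.18 ± 0.19, adjusted p = 0.00193, edgeR). In MKN1, where its level was under the minimum for naming and it was chosen after its values were seen, it fell from 4.66, 4.78 and 4.38 CPM to 2.25, 1.67 and 1.36 CPM (-1.39 ± 0.20, adjusted p = 0.00341, edgeR), and the difference was -2.56. VMP1, an endoplasmic reticulum scramblase, rose by a log2 change of 0.59 and TP53INP1, the paralog of TP53INP2, fell by 0.62. Among 16 genes for fusion with lysosomes, 2 rose and 2 fell in AGS, where STX17, the SNARE of autophagosomes, had 0.57 and VPS18, a tethering subunit, -0.77. VPS39, a subunit of the same tether, had 0.54 in AGS, and VPS16, another, -0.57 in MKN1 (adjusted p = 0.0142, edgeR). In AGS the calls of VPS18 and VPS39 were thus opposite. Some of these calls lost the threshold with 1 library fewer: VMP1 without any 1 of the 6 AGS libraries (highest adjusted p 0.129, edgeR), VPS39 without any of them but untreated replicate 2 (0.104), STX17 without untreated replicate 3 (0.0556) or treated replicate 2 (0.051), and VPS16 without MKN1 untreated replicate 2 (0.0618).

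**Figure D5:**
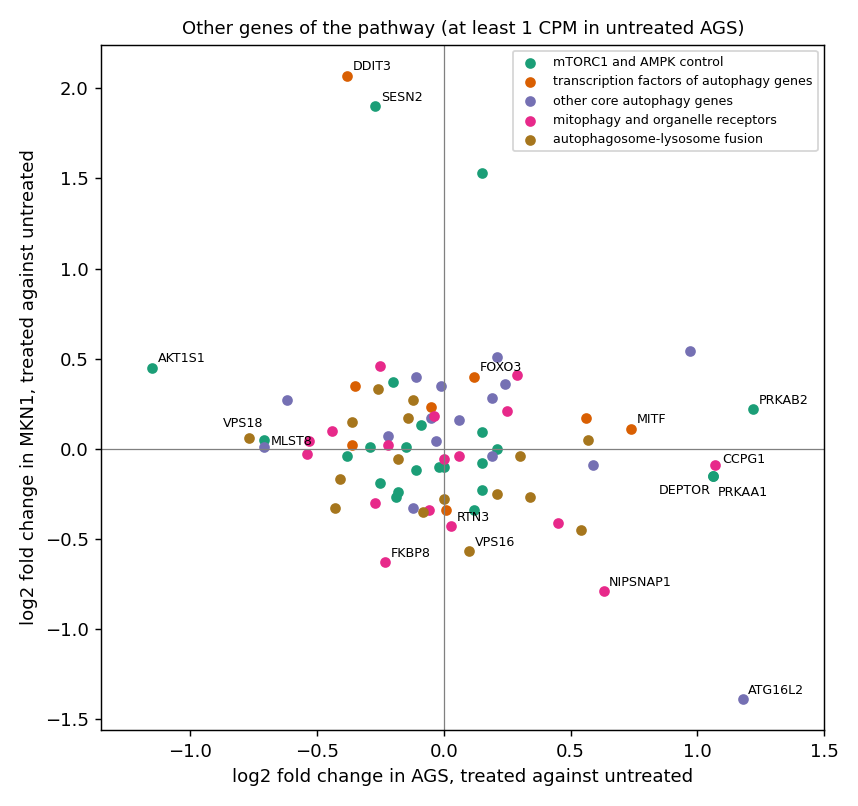
Log2 change in AGS (horizontal) and MKN1 (vertical) for 80 further autophagy-related genes with at least 1 CPM in untreated AGS, coloured by list. NIPSNAP1 lies to the right of and below 0, AKT1S1 to the left, and PRKAB2, PRKAA1 and CCPG1 to the right.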

How the data were processed

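The deposited values are raw read counts per gene, which the authors did not normalize. HISAT2 2.0.4 and the build hg38/GRCh38 are named in the submitters' processing notes. The sources used here do not give the counting tool, annotation release or strand setting, and the kit named in the labels does not mark strand. Symbols were matched for 32069 identifiers. The other 200 held at most 0.355% of a library's counts and stayed in the fit.

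The 37 genes and all gene lists were chosen with earlier results of these data known. Genes were filtered with filterByExpr, scaled by TMM and tested with edgeR 4.0.16 in R 4.3.3 (quasi-likelihood F test, 1 model for 4 groups, 8 residual and 4.91 prior degrees of freedom, biological coefficient of variation 19.7%). P-values were adjusted by Benjamini-Hochberg over 20280 genes with a threshold of 0.05, and SE was taken from the F value. Contrasts were treated against untreated in each line, the difference of these effects (MKN1 minus AGS), and untreated MKN1 against AGS. Counts of 0 were set against a floor of 3 counts, which covers counting error only, since no molecular identifiers mark single molecules. Lengths, GC content and shared words of the longest transcripts came from GENCODE 29 on GRCh38, promoters from RefSeq on GRCh38.p14.

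Values by library are given for each of the 37 genes past the threshold on treatment or in the difference, and for the gene with the smallest adjusted p where a step had none. Of the further lists, up to 3 genes a list and line are named, those with the largest changes past the threshold, given an average level in that line of 5 CPM or more. Alternatives were DESeq2 size factors, library totals, DESeq2 1.42.0, limma 3.58.1 voom, no filter, a filter of 5 CPM in 3 libraries, each line fitted alone, a replicate block, leaving out each library and, chosen after seeing the data, removal of GC and length trends with mgcv 1.9.3. No replicate pair was close enough to be 1 library deposited again. The scripts were tested on simulated data with the same spread in both lines. That test does not cover spread that differs between lines.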

Additional observations from a re-analysis of the deposited data

Results flagged for a closer look

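For 6 of the 37 genes the effect of treatment differed between AGS and MKN1 by the contrast of MKN1 minus AGS in edgeR's quasi-likelihood test. On the log2 scale the difference was 6.40 for ULK2, which passed the filter on low counts only through MKN1 and whose AGS arm is 28 counts against 0, so that its size depends on the prior count, -0.85 for ULK3, -0.59 for BECN1, -1.31 for WIPI1, 0.79 for SQSTM1 and 1.30 for TP53INP2. The fitted changes of AGS and MKN1 had opposite signs in all 6, but opposite responses are not shown. In 5 of them only the AGS change passed the test by itself, and in ULK3 only the MKN1 change did. The 6 genes were also picked by this difference, and the sign for ULK2 rests on 28 counts against 0. Groups of 3 libraries are too small for a test of single outlying libraries.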

How the results depend on the processing

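No autophagy gene called with all libraries changed sign under the alternatives tried, whereas 9 of 24 uncalled genes in AGS, 14 of 34 in MKN1, 7 of 31 in the difference and 5 of 12 between untreated lines did. With each line fitted alone, edgeR's quasi-likelihood test called 23 autophagy genes in AGS (12 of the 13 kept; ULK2 did not pass the filter), 41 of the further pathway genes and 8368 of all genes, and in MKN1 it called 0 (3 at an unadjusted p below 0.05), 0 (16 unadjusted) and 34. Fewer libraries enter those fits, in both lines alike, and they were not run for contrasts between lines. Replicate pairs differed by a chi-square over genes of 9.78 to 16.5 per degree of freedom in AGS and 13.8 to 81 in MKN1. The main fit shares 1 estimate of spread per gene between the lines, so its SE does not follow such a difference. The part of unequal spread in the calls was not tested. DESeq2 called 14 further genes and 2437 of all genes in MKN1, and dropping the filter left 809 of all genes there. The samples share only replicate numbers: deviations of same-numbered libraries correlated by -0.05 to 0.076 in AGS and by -0.053 to 0.224 in MKN1, and 1 of 3 numbers per line correlated best with its own. In MKN1 this was replicate 3 (0.224). Replicate 3 had the lowest mesenchymal sum in untreated (1422 CPM) and treated (1549.5 CPM) MKN1, and the lowest squamous sum in both (1589 and 2238 CPM). Its epithelial sum was lowest in untreated MKN1 only. A shared batch was not tested. With a replicate block, 1 autophagy gene was called in MKN1, 14 in AGS, 7 in the difference and 27 between untreated lines. In MKN1 GABARAP kept its call, and RB1CC1 and ULK3 lost theirs. With GC and length trends removed, 16 further genes were called in MKN1 and 28 in the difference. The share of all genes called with the block or with the trends removed is not given here. The cause of these shifts was not tested.

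Leaving out 1 library at a time gave 7 to 17 autophagy genes called in AGS, 0 to 6 in MKN1, 6 to 10 in the difference and 22 to 27 between untreated lines. For the further genes the ranges were 10 to 27, 3 to 18, 11 to 24 and 55 to 66, and for all genes 2051 to 5533, 336 to 3160, 2098 to 4643 and 12432 to 13875. No other scaling moved the median of all genes by more than 0.075 (log2). At these depths ULK2 in treated AGS lies below the 3-count floor, so the size of its fall is a bound only.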
